A study of Bos taurus with 3 samples.

Results

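The FCER1A CD1E cells were 226 of the 26020 rumen cells that passed the quality filters, and 216 of them came from a single calf. They were chosen by measured transcripts: at least 30 unique molecular identifiers (UMIs) of BOLA-DRA per 10000, at least 2 UMIs of FCER1A and CD1E combined, fewer than 2 UMIs of the complement genes C1QA, C1QB and C1QC, and not both BATF3 and DNASE1L3. Their keratins KRT5, KRT14 and KRT15 had to sum to under 10 UMIs per 10000. The cells came from the ventral sac of the rumen, the largest stomach chamber of cattle, with the outer muscle removed. The animals were 3 dairy calves taken at newborn age, 1 day after birth, with no treatment described. The paper names the Holstein breed for its adult cattle. Each calf gave 1 droplet library (10x Genomics 3' chemistry, version 3), so the calf is the replicate and the cells of a calf are not. Where viability was low, dead cells had been removed before loading, which can change the mix of cells recovered. No source states that any lineage was enriched or sorted.

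Type 2 conventional dendritic cells are antigen-presenting cells that take up material in a tissue, load its peptides onto class II molecules of the major histocompatibility complex (MHC) and show them mainly to CD4 T cells. Type 1 conventional dendritic cells depend on the factors BATF3 and IRF8 and are known for showing antigen on class I to CD8 T cells. The chain that FCER1A encodes binds immunoglobulin E and is carried by human type 2 dendritic cells as well as by mast cells and basophils, and CD1 proteins show lipids to T cells.

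The libraries held 7529, 12043 and 11656 barcodes and 82263092, 89803289 and 106145091 UMIs in calves 1, 2 and 3, and 4886, 10654 and 10480 barcodes passed the filters. Between libraries, 61 barcodes were shared, and 2 of these belonged to an FCER1A CD1E cell. The cells held a UMI of a T cell CD3 gene in 2 cases, and a score for simulated doublets would have removed 4 of the 226.

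Of BOLA-DRA-high cells, the calves gave 2, 32 and 374, and 1, 9 and 216 of them were FCER1A CD1E cells. These were 28.1% of the BOLA-DRA-high cells of calf 2 (exact 95% binomial interval 13.7 to 46.7) and 57.8% of those of calf 3 (52.6 to 62.8). Of all kept cells they made up 0.0205% in calf 1, 0.0845% in calf 2 (0.0386 to 0.16) and 2.06% in calf 3 (1.80 to 2.35). The intervals for calves 2 and 3 did not overlap on either denominator. All intervals here and below cover counting error only and do not measure the spread between animals. No groups of calves were compared, because all 3 were newborn.

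**Figure D1:**
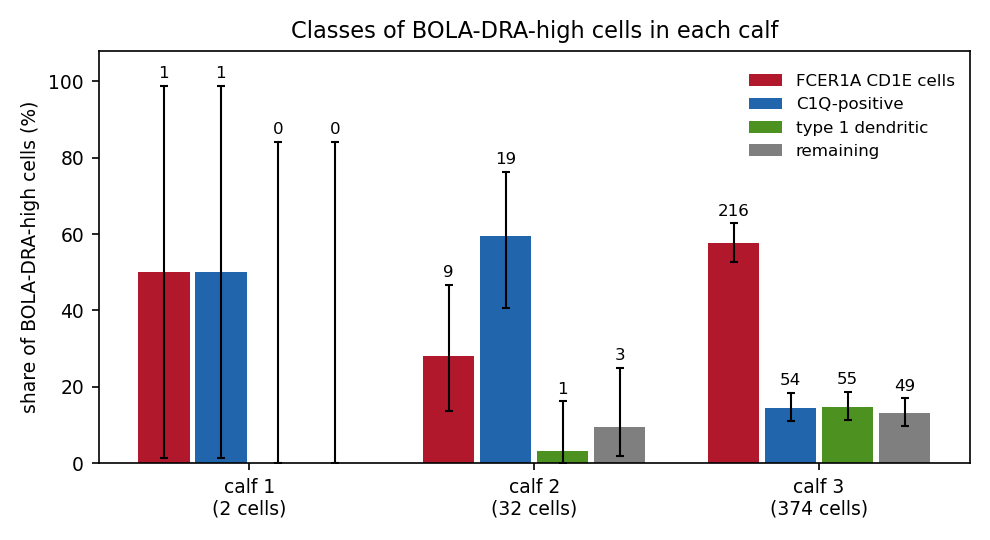
Bars give each class as a percentage of the BOLA-DRA-high cells of calves 1, 2 and 3, with exact 95% binomial intervals and the number of cells. "Type 1" marks BATF3 DNASE1L3 cells. In calf 3 the FCER1A CD1E cells are 57.8% of 374 cells, while in calf 2 C1Q-positive cells lead with 59.4% of 32.

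The other BOLA-DRA-high cells of calf 3 fell into 54 C1Q-positive cells, with at least 2 UMIs of the C1Q genes, 55 BATF3 DNASE1L3 cells, which held both of those genes, and 49 remaining cells. In calf 2 these classes held 19, 1 and 3 cells, and in calf 1 the only other cell was C1Q-positive. Only calf 3 had at least 10 FCER1A CD1E cells, so the folds and levels compared below are those of calf 3 unless another calf is named. For some genes the level in calf 2 is given too, and for the others no level from a second calf is shown. A level pools the cells of a class in 1 calf and gives a gene's UMIs in every 10000 of their total. A test across calves was possible only with edgeR's quasi-likelihood fit over all calves that held both classes, with the calf as a term. Its adjusted p-values (Benjamini-Hochberg) rest on 9 FCER1A CD1E cells in calf 2 and 1 in calf 1. The rule genes were given no test, and the other genes were read in the same cells that the rule chose, so they are not independent of it.

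The FCER1A CD1E cells had a median of 10500, 7459 and 6959.5 UMIs in calves 1, 2 and 3, and between 1345 and 16024 in calf 3. Median gene numbers were 2716, 2224 and 2264.5, and the mitochondrial share was 2.32, 4.07 and 2.65%. In calf 3 the C1Q-positive cells had a median of 5427 UMIs, the BATF3 DNASE1L3 cells 7975 and the remaining cells 5233. A level is a share of UMIs, and counting intervals are given beside the folds. The calf 3 comparisons below were also made with every cell thinned to an equal number of UMIs. Genes at least 2-fold apart then went from 268 to 362 against C1Q-positive cells and from 134 to 247 against BATF3 DNASE1L3 cells. They went from 230 to 349 against the remaining cells and from 86 to 120 against all others. How much of a given level or fold came from depth was not tested.

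The values that chose the cells are given as a description. Single cells of calf 2 held from 1.01 to 17.2 FCER1A UMIs per 10000, with a median of 6.83, and those of calf 3 from 0 to 75.7, with a median of 22.0. The single cell of calf 1 held 22.9. CD1E was lower, with medians of 0.854 (0 to 14.2) in calf 2 and 2.07 (0 to 22.7) in calf 3, and 12.4 in the cell of calf 1. FCER1A therefore did most of the choosing: 142 of the 226 cells held both transcripts, 80 held FCER1A without CD1E, and 4 held CD1E without FCER1A.

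The sum of FCER1A and CD1E had a median of 8 UMIs in calf 2 (2 to 15) and 16.5 in calf 3 (2 to 79), and it was 37 in calf 1. At the edge of the rule, 18 cells had exactly 2 UMIs. Just outside, among the remaining cells, 8 had 1 UMI and 44 had 0. The lowest BOLA-DRA value inside was 30.1 per 10000 and the highest outside was 29.7, in 1 of 8 cells that failed on BOLA-DRA alone. BATF3, a factor of type 1 dendritic cells that the rule also read, was not absent, since 128 cells held a UMI of it, but only 1 held DNASE1L3.

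The label was checked against markers that the rule did not read, and they were met in part. Of the type 2 dendritic cell list, CST3, the cysteine protease inhibitor cystatin C, stood at levels of 125, 92.9 and 158 in the FCER1A CD1E cells of calves 1, 2 and 3. SIRPA, an inhibitory receptor that marks type 2 dendritic cells in cattle, stood at 3.81, 4.08 and 3.15. FLT3, the receptor for the growth factor on which dendritic cells depend, stood at 3.81, 0.281 and 1.51. All 3 were detected in every calf.

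The CD1 and lectin genes of the same list were lower. CD1B, another lipid-presenting molecule, had levels of 0.952, 0.281 and 1.31, and CD1A had 0.952, 0.281 and 0.27. CLEC10A, a lectin of human type 2 dendritic cells, had levels of 0.952, 0.704 and 0.712, and CLEC4A, an inhibitory lectin, 0.952, 0.985 and 1.71. IRF4, a factor of type 2 dendritic cells, was 0, 0.281 and 0.363, so it was near the counting limit in calves 1 and 2. In calf 3, ZBTB46, a factor of conventional dendritic cells, and the growth factor receptor gene CSF2RA each had 1 UMI (a level of 0.0066), and the lectin gene CD209 had 0 UMIs, which allows a level of up to 0.0198. ITGAX was not analysed here.

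Shares of cells with a UMI were set beside cells that should lack these genes, with each cell thinned to 2000 UMIs. This kept 222 of the 226 FCER1A CD1E cells (median depth 7013 UMIs), 113 of 127 CD3E T cells (3286) and 22016 of 22496 epithelial cells (7880). FLT3 was found in 27.9% of the FCER1A CD1E cells, in 0% of T cells, which allows up to 2.65%, and in 0.0363% of epithelial cells. CD1B was found in 15.8, 2.65 and 0.0227% and SIRPA in 48.2, 1.77 and 5.26%. CLEC10A was found in 8.56, 0 and 0.0318%. These shares lay above those of T cells and epithelial cells, but not above those of every other BOLA-DRA-high class: CLEC10A was found in 16.3% and FLT3 in 28.6% of remaining cells, and SIRPA in 62.5% of C1Q-positive cells. Without thinning, the shares in calf 3 were 59.7% for FLT3, 37.0% for CD1B, 82.9% for SIRPA and 32.9% for CLEC10A. IRF4 was found in 4.95% of the FCER1A CD1E cells, in 12.4% of T cells, which use it themselves, and in 0.0454% of epithelial cells. Of the 2 genes that name the class, CD1E was as common in C1Q-positive cells, at 37.5% beside 37.4% of the FCER1A CD1E cells. FCER1A was found in 93.7% of the FCER1A CD1E cells, 49.1% of BATF3 DNASE1L3 cells and 12.5% of C1Q-positive cells.

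**Figure D2:**
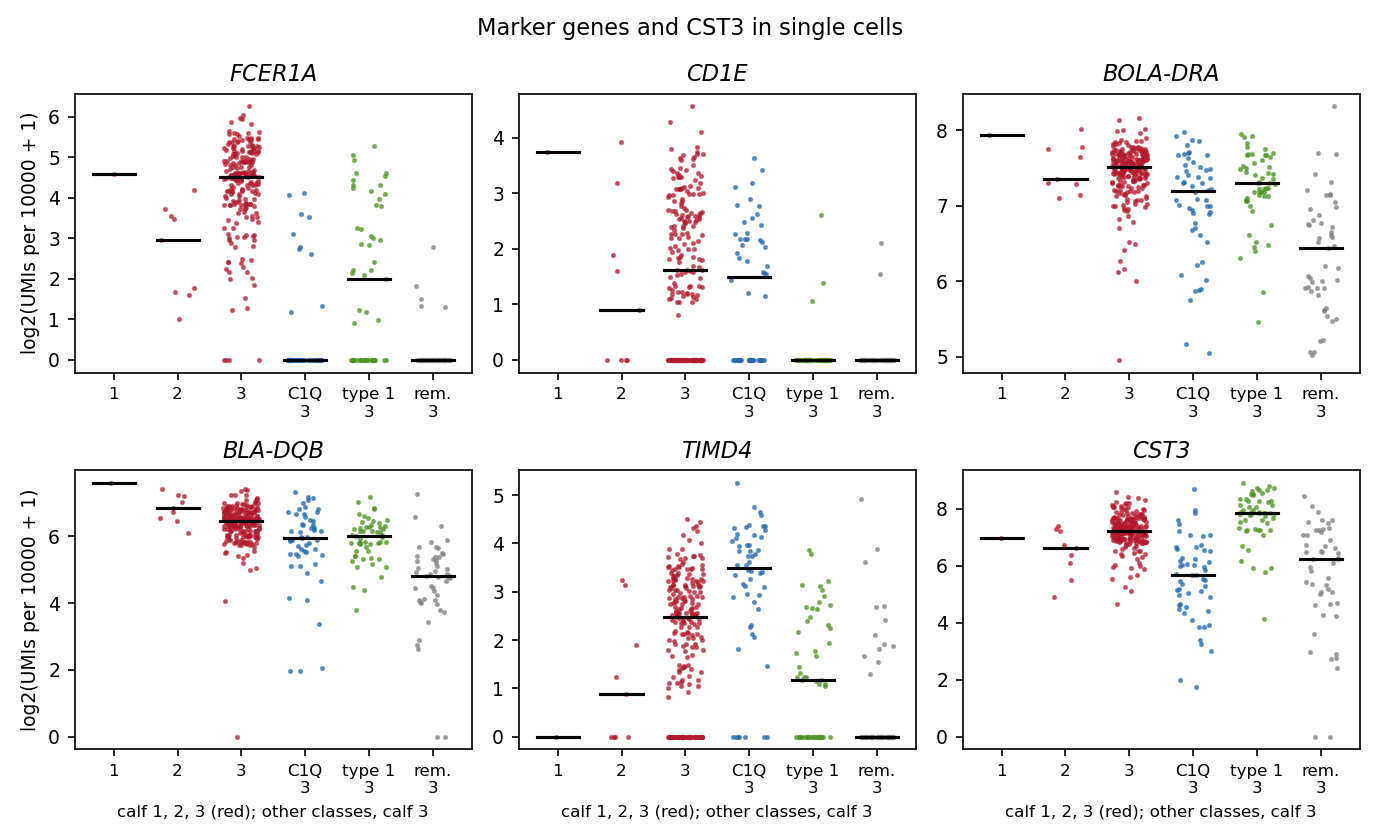
Each point is 1 cell, plotted as log2(UMIs per 10000 + 1), with FCER1A CD1E cells of calves 1, 2 and 3 in red, then the C1Q-positive, BATF3 DNASE1L3 ("type 1") and remaining ("rem.") cells of calf 3, and lines mark medians. BOLA-DRA spans 30.1 to 286 per 10000 over the FCER1A CD1E cells of calf 3, and TIMD4 spreads from 0 to 21.9 there.

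The genes of MHC class II spanned a wide range of levels in these cells. BLA-DQB, the beta chain of DQ, ranged from 67.3 to 170 per 10000 over the cells of calf 2, with a median of 114, and from 0 to 169 over those of calf 3, with a median of 88.2, and was 193 in calf 1. CD74, the invariant chain that guides class II through the cell, had medians of 161 (73.1 to 218) and 152 (27.9 to 263) in calves 2 and 3, and 231 in calf 1. BOLA-DRA itself, which chose the cells, had medians of 163 and 181. The 2 animals with more than 1 cell overlapped over most of their ranges for these genes.

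The peptide editors followed at lower levels: BOLA-DMA stood at 11.4, 6.9 and 7.06 in calves 1, 2 and 3, and BOLA-DMB at 14.3, 11.4 and 10.8. BOLA-DOB, which restrains that editing, stood at 0, 0.844 and 2.5. At the other end, BOLA-DQB was at 0.198 in calf 3, BOLA-DYA at 0.0594 and BOLA-DYB at 0. Without BOLA-DRA, which the rule read, the 16 class II genes summed in calf 3 to 301 in the FCER1A CD1E cells, 313 in C1Q-positive cells, 249.8 in BATF3 DNASE1L3 cells and 179 in the remaining cells.

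Class I levels were higher in calf 3 than in the other calves. The class I heavy chain gene named BOLA had levels of 12.4, 11.7 and 70.6 in the FCER1A CD1E cells of calves 1, 2 and 3, and B2M, its light chain, 41.9, 63.2 and 114. In calf 3 BOLA was at 91.1 in C1Q-positive, 72.2 in BATF3 DNASE1L3 and 76.6 in remaining cells, and the summed class I list was 206 in the FCER1A CD1E cells against 231 to 245 in the other classes. With 1 library per calf, the animal and the library cannot be told apart.

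TIMD4, a receptor for phosphatidylserine on dying cells that is better known from resident macrophages, was carried by many of these cells. It was at 0 in the cell of calf 1, from 0 to 8.49 per 10000 in calf 2, with a median of 0.854, and from 0 to 21.9 in calf 3, with a median of 4.53. After thinning, 57.2% of the FCER1A CD1E cells held a UMI of it, against 0.885% of T cells, 0.0772% of epithelial cells, 69.4% of C1Q-positive cells, 32.7% of BATF3 DNASE1L3 cells and 12.2% of remaining cells. In calf 3 alone the share was 58.5% after thinning and 79.6% without it.

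CSF1R, the receptor for the macrophage growth factor, had levels of 6.67, 3.52 and 4.5 in the FCER1A CD1E cells of calves 1, 2 and 3 and was found in 49.5% of the thinned cells. Other macrophage genes ranged widely. In calf 3, MRC1 was found in 88 of 216 cells (a level of 1.06), the lysosomal gene CD68 in 82 (0.693) and the scavenger receptor gene MSR1 in 43 (0.343). APOE, a lipid carrier, was at 0.0198 against 17.7 in C1Q-positive cells. FOLR2, a folate receptor of tissue macrophages, was at 0.0066 against 3.07, and CD14, the co-receptor for bacterial lipopolysaccharide, at 0.066 against 1.43. The macrophage list summed to 6.75 per 10000 (0 to 27.1 over single cells) in the FCER1A CD1E cells and to 140 (20.0 to 571) in C1Q-positive cells of calf 3. That list holds C1QA, C1QB and C1QC, which the rule read, so the selection itself set part of this gap.

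FCER1A also marks mast cells and basophils, whose other genes were near 0. In calf 3 the mast cell and basophil list summed to 0.0462 per 10000, and 5 of its 9 genes had no UMI: MS4A2, the beta chain that partners FCER1A, TPSB2, HPGDS, ENPP3 and IL4. KIT, the receptor for stem cell factor, CPA3, a mast cell protease, and HDC, which makes histamine, had 1 UMI each. FCER1G, the signalling chain shared by several Fc receptors, was present at 7.62, 12.1 and 6.14 in calves 1, 2 and 3.

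CD207, the langerin that defines Langerhans cells, was detected at 0.303 in calf 3 and 0.281 in calf 2, in 7.66% of the thinned FCER1A CD1E cells against 0% of T cells and 0.0182% of epithelial cells. EPCAM, another Langerhans cell marker, was at 0.0264 in calf 3. CDH1, the adhesion molecule E-cadherin of the same list, was at 0.732 there, with a thinned share of 13.5%, beside 0% for T cells and 9.81% for epithelial cells. CDH1 was more common in remaining cells, at 30.6%, and was found in 2.78% of C1Q-positive and 1.82% of BATF3 DNASE1L3 cells. CD207 was found in 2.78% of C1Q-positive cells and in 0% of BATF3 DNASE1L3 and remaining cells, which allows up to 5.45 and 6.12%.

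Transcripts of other lineages were present at low levels. The epithelial list summed to 6.47 per 10000 in calf 2 and 4.51 in calf 3 (0 to 12.4 over cells), and 209 of the 226 cells held a UMI of KRT5, KRT14 or KRT15. The rule held these keratins of the list under 10 per 10000, so the selection limited that sum. KRT5 after thinning was found in 20.7% of the FCER1A CD1E cells and in 23.9% of T cells, against 99.2% of epithelial cells. Limits on the same keratins also chose the T cells and the epithelial cells. The fibroblast list summed to 10.1 in calf 2 and to 0.943 in calf 3. Both sums were concentrated in few cells, since 1 cell of calf 2 held all 25 of its UMIs of DCN, a proteoglycan of connective tissue, and 1 cell of calf 3 held 31 of 37 UMIs of the collagen gene COL3A1. The T cell and cytotoxic list summed to 1.21 in calf 3 against 7.84 in C1Q-positive cells, and the B cell list to 0.158. The part of these transcripts in the values below was not tested.

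**Figure D3:**
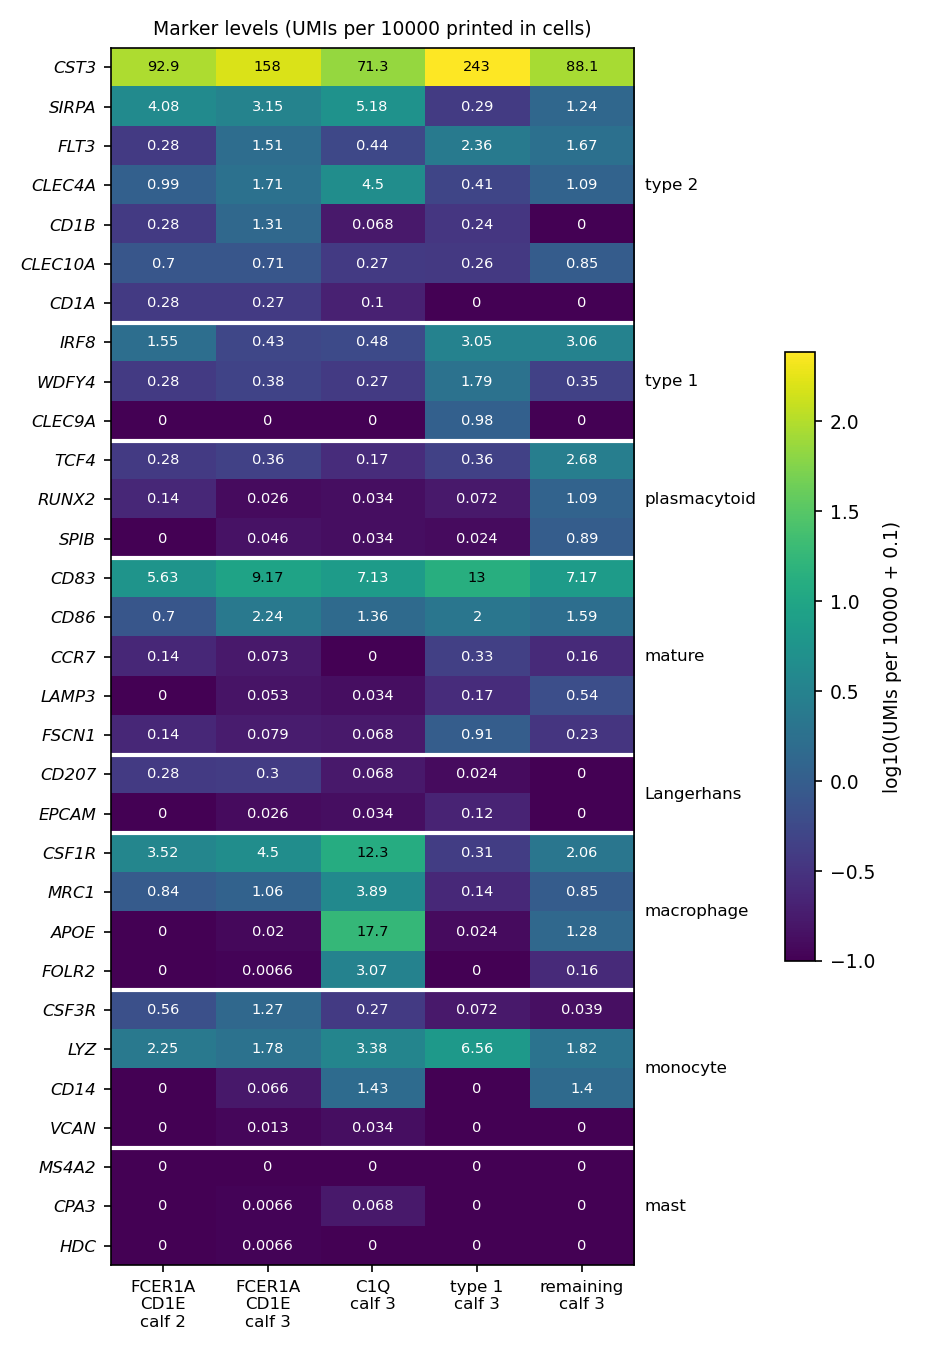
The heat map gives levels in UMIs per 10000 (colour: log10 of level + 0.1) of marker genes in the FCER1A CD1E cells of calves 2 and 3 and in the other BOLA-DRA-high classes of calf 3, with "type 1" for BATF3 DNASE1L3 cells. APOE is at 17.7 in C1Q-positive cells and at 0.0198 in FCER1A CD1E cells of calf 3, and CLEC9A is at 0 there and at 0.978 in BATF3 DNASE1L3 cells.

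When set against C1Q-positive cells of calf 3, 268 of 1712 compared genes (15.7%) differed by at least 2-fold, 92 higher (5.37%) and 176 lower (10.3%) in the FCER1A CD1E cells. In calf 2, 68 of 88 such higher genes and 155 of 167 lower genes that could be read (at least 5 UMIs) lay on the same side, against 48.6 and 51.4% of all genes on those sides. C1QA, C1QB and C1QC separate these classes by the rule, and what moves with them in the same cells is not independent of it, so the calf 3 folds are a description. A gene was compared where its level was at least 1 in either class, and a gene that was that high in 1 class only was bound to differ in that direction, so list counts below are split by this.

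Of the macrophage list, 6 of 11 genes outside the rule were compared. CSF1R and MRC1 reached a level of 1 in both classes and were at least 2-fold lower, while the other 4 (CD68, MSR1, FOLR2 and APOE) were compared only because of their level in C1Q-positive cells. APOE was 894-fold lower (counting interval 304 to 4350), at 0 against 4.33 in calf 2. TTR, the thyroid hormone carrier transthyretin, was 42.9-fold lower (30.7 to 61.5), at 0.141 against 16.8 in calf 2. CSF1R differed less, at 2.73-fold lower (2.39 to 3.1), and at 3.52 against 10.8 in calf 2. All 3 were lower than in C1Q-positive cells in both calves.

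Of 23 receptors that sense microbes, 4 reached a level of 1 in both classes, and 3 of them (CLEC4A, CLEC6A and MRC1) were at least 2-fold lower and none higher. MRC1, the mannose receptor, stood at 2.86, 0.844 and 1.06 in the FCER1A CD1E cells of calves 1, 2 and 3 and at 3.89 in the C1Q-positive cells of calf 3. Of 7 chemokine and receptor genes at that level in both classes, CCL3, CCL4 and CXCL8 were lower and none was higher. CXCL8, which draws neutrophils, was at 2.94 against 10.7. Of the Fc receptors, FCGR1A and FCGR3A, which bind immunoglobulin G, were at 0.0132 against 3.96 and 0.165 against 3.17. TIMD4 was 2.22-fold lower (1.94 to 2.52), and in calf 2 it was 1.97 against 2.8.

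Of the type 2 list, 5 of 11 genes outside the rule were compared, and 3 reached a level of 1 in both classes. Of these 3, CST3 was at least 2-fold higher and CLEC4A at least 2-fold lower. CST3 was 2.22-fold higher (2.12 to 2.32), and in calf 2 it stood at 92.9 against 72.1. FLT3 was 3.41-fold higher (1.95 to 6.5), and CD1B was 19.2-fold higher (5.23 to 159), on 198 UMIs against 2. FLT3 and CD1B were compared only because of their level in the FCER1A CD1E cells, so their direction was set by the filter. CLEC4A from the same list went the other way, 2.63-fold lower (2.12 to 3.26). PSMB9, a subunit of the immunoproteasome that cuts peptides for class I, was 2.98-fold higher (2.41 to 3.74).

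CD52, a small surface glycoprotein of leukocytes, had 604 UMIs in the FCER1A CD1E cells of calf 3 and 0 in its C1Q-positive cells, so it was at least 38.9-fold higher, while in calf 2 the levels were 0.563 and 0.0849. VIM, the filament protein vimentin, was 4.84-fold higher (4.15 to 5.67) in calf 3 but stood at 32.2 against 31.5 in calf 2, so that difference was seen in 1 calf. Of 9 class II genes at a level of 1 in both classes, BOLA-DOB was higher, CTSH, an endosomal protease, was lower, and 7 passed in neither direction. Of 6 costimulation genes compared, none passed 2-fold in either direction. Over all compared genes 15.7% did, a share at which lists this short can hold few or none. CD86, a ligand of CD28, was at 2.24 against 1.36.

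With edgeR's quasi-likelihood test over the 3 calves, 125 of 1737 genes (7.2%) passed an adjusted p of 0.05 against C1Q-positive cells, 25 higher (1.44%) and 100 lower (5.76%). The 6 macrophage genes tested were called lower, as were 5 of 9 chemokine and 5 of 8 microbe-sensing genes, and none of the 7 costimulation genes passed. The filter on counts could likewise let a gene in through the class where it was high, so these counts are no support of their own. Among the lower genes were APOE (log2 difference -9.58), TTR (-5.52, edgeR adjusted p 1.71e-06) and CD14 (-4.50, adjusted p 0.000479). Among the higher genes were PIM3, a serine/threonine kinase (2.00, SE 0.263, adjusted p 0.000685), PAK1, a kinase of actin signalling (1.93, adjusted p 0.00552), PSMB9 (1.49, SE 0.263, adjusted p 0.00493) and CST3 (0.97, SE 0.253, adjusted p 0.0413). NAPSA, an aspartic protease, differed by 2.15 (adjusted p 0.0106). HSPA1A, a heat shock gene that responds to stress and to tissue dissociation, was also lower (-1.59, adjusted p 0.00552), at 0.952, 2.96 and 15.6 in the FCER1A CD1E cells of calves 1, 2 and 3 and at 35.2 in the C1Q-positive cells of calf 3. Its part in the other differences was not tested. Without calf 1, 2 or 3 the fit called 296, 115 or 15 genes, and without calf 3 neither PIM3 (1.78), PSMB9 (1.30) nor CST3 (0.74) passed, while without calf 2 PSMB9 (1.66) and HSPA1A (-1.12) did not.

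**Figure D4:**
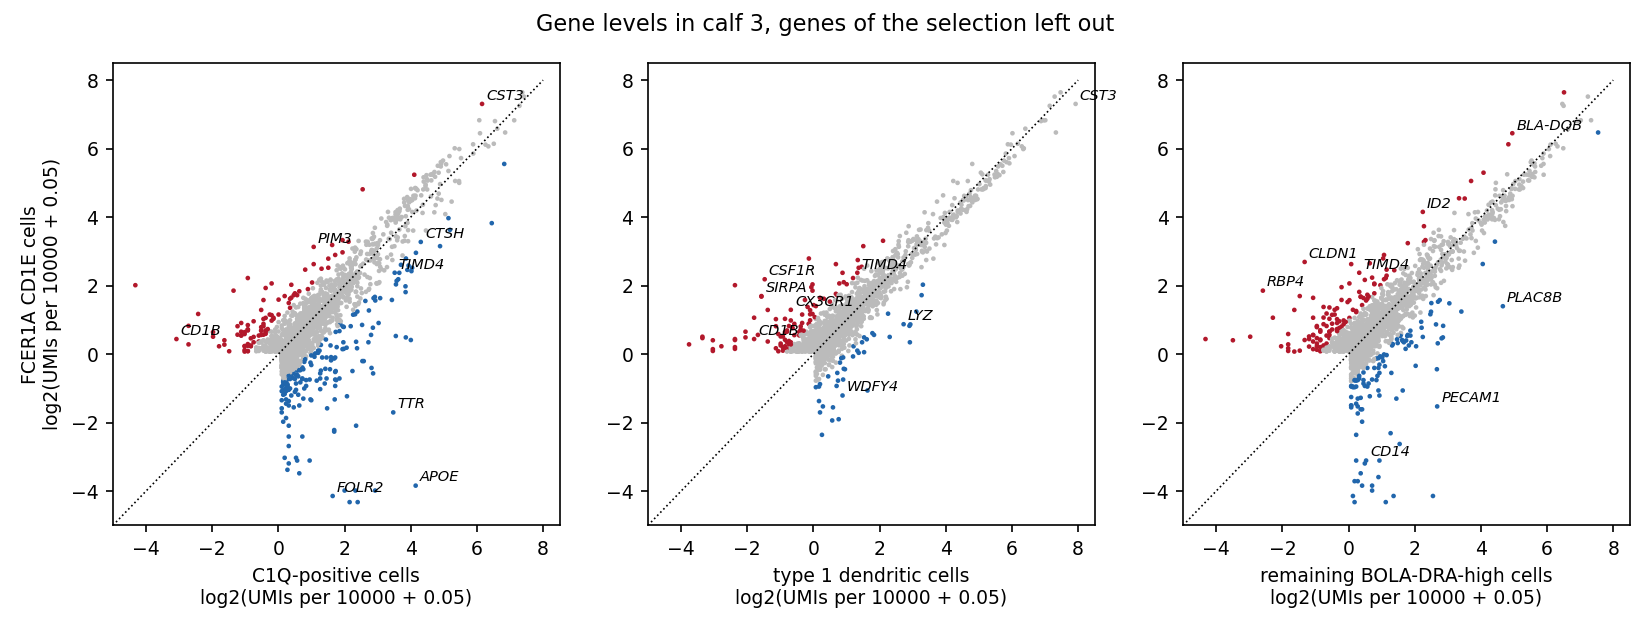
Each point is a gene not read by the rule, with its level in the FCER1A CD1E cells of calf 3 (vertical axis) against that in its C1Q-positive, BATF3 DNASE1L3 ("type 1") and remaining cells, on log2(UMIs per 10000 + 0.05) axes, and the dotted line marks equal levels. Red genes are at least 2-fold higher (92 of 1712 against C1Q-positive cells) and blue genes at least 2-fold lower (176).

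Against the 55 BATF3 DNASE1L3 cells of calf 3, fewer genes differed: 134 of 1535 (8.73%), with 93 higher (6.06%) and 41 lower (2.67%) in the FCER1A CD1E cells. Calf 2 held 1 such cell and calf 1 none, so these values come from 1 animal with no test. The BATF3 DNASE1L3 cells were not free of FCER1A, which the rule allows, at 6.71 against 23.5 in the FCER1A CD1E cells. SIRPA was 11-fold higher (6.25 to 21.5), CSF1R 14.5-fold (8.42 to 27.4) and CD1B 5.47-fold (2.91 to 11.6). CX3CR1, the fractalkine receptor, was 4.19-fold higher (2.77 to 6.63) and TIMD4 2.09-fold (1.7 to 2.59). CD36, a scavenger receptor for lipids and dying cells, was 9.12-fold higher. SIRPA, CSF1R, CD1B, CX3CR1 and CD36 reached a level of 1 only in the FCER1A CD1E cells, so their direction was set by that filter. TIMD4 reached it in both classes. BLA-DQB was 1.35-fold higher, below the 2-fold limit.

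Of the type 1 list, IRF8 and WDFY4 could be compared only because of their level in the BATF3 DNASE1L3 cells, so their direction was set by that filter. IRF8, the factor that type 1 dendritic cells need, was 7.12-fold lower (5.25 to 9.76), at 0.429 against 3.05, although the FCER1A CD1E cells of calf 2 held 1.55. WDFY4, which serves cross-presentation, was 4.68-fold lower (3.28 to 6.71), at 0.383 against 1.79. CLEC9A, a receptor for exposed actin of dead cells, had 0 UMIs against 41, so it was at least 49.4-fold lower. FLT3, which both types of conventional dendritic cell use, was 1.56-fold lower (1.22 to 1.99), and CST3 was 1.54-fold lower (1.5 to 1.57).

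Of the antigen presentation genes, 0 of 10 class II and 0 of 8 class I genes passed 2-fold. Over all genes 8.73% did, a share at which lists this short can hold none. The median log2 ratio was 0.42 for class II and -0.46 for class I, beside 0.08 over all genes. Of 4 chemokine and receptor genes at a level of 1 in both classes CXCR4 was higher and none was lower. Of the microbe-sensing genes 2 reached it, and CLEC12A was higher. In the list of mature dendritic cells 3 reached it, and BIRC3 was lower.

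Against the 49 remaining BOLA-DRA-high cells of calf 3, 230 of 1633 genes (14.1%) differed by at least 2-fold, 116 higher (7.1%) and 114 lower (6.98%). This class is what the rule left over and holds cells with few or no FCER1A and CD1E UMIs. BLA-DQB was 2.83-fold higher (2.63 to 3.04) in the FCER1A CD1E cells, at 87.3 against 30.9. TIMD4 was 4.27-fold higher (2.99 to 6.34), at 5.14 against 1.2. ID2, an inhibitor of E proteins that dendritic cells need, was 3.78-fold higher (3.15 to 4.57). Of 4 chemokine and receptor genes at a level of 1 in both classes, CXCL16 and GPR183 were higher. CX3CR1 (2.4 against 0.698), CXCL8 (2.94 against 0.814), IL1B (3.07 against 0.427) and TNF (2.04 against 0.427) reached it only in the FCER1A CD1E cells. The log2 difference of CXCL8 turned to -0.065 when classes were taken from thinned cells. IRF8 was 7.14-fold lower (5.08 to 10.1), but reached a level of 1 only in the remaining cells. Of 5 plasmacytoid dendritic cell genes compared, ITM2C, TCF4 and RUNX2 were lower but reached a level of 1 only in the remaining cells, and JCHAIN was higher, at 1.17 against 0.233, through 1 cell described below. TCF4, the factor of plasmacytoid dendritic cells, stood at 0.356 against 2.68.

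For the remaining cells, 61 of 105 higher genes that could be read in calf 2 lay on the same side there (58.1%, beside 58.4% of all genes), and 35 of 68 lower genes did (51.5%, beside 41.6%). The higher share was therefore at the background, and calf 2 had only 3 remaining cells. In the edgeR fit over calves 2 and 3, 18 of 2358 genes (0.763%) passed, 6 higher (0.254%) and 12 lower (0.509%). RBP4, the retinol-binding protein, was higher (log2 difference 4.38, SE 0.835, edgeR adjusted p 5.77e-05), at 2.11 against 0.588 in calf 2 and 3.56 against 0.116 in calf 3. CLDN1, a tight junction protein, was higher (4.35, SE 0.877, adjusted p 0.000221), at 3.66 against 0 and 6.41 against 0.349. CLEC5A, a myeloid lectin, was higher (3.03, adjusted p 0.00663). PECAM1, an adhesion molecule of endothelium and leukocytes, was lower (-2.91, adjusted p 0.0296). This count was the least stable: it was 1 when the rule asked for 1 UMI of FCER1A and CD1E, 49 when it asked for 3, and 0 of 845 (15 at an unadjusted p of 0.05; 5 with DESeq2 on the cells as chosen) with keratins under 3 per 10000. Of the B cell list, CD79B, PAX5 and VPREB3 had no UMI in the FCER1A CD1E cells of calf 3.

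Against all 158 other BOLA-DRA-high cells of calf 3, 86 of 1545 genes (5.57%) differed by at least 2-fold, 31 higher (2.01%) and 55 lower (3.56%). In calf 2, 17 of 28 higher genes (60.7%, beside 52.6% of all genes) and 48 of 51 lower genes (94.1%, beside 47.4%) lay on the same side. In calf 2, C1Q-positive cells were 19 of the 23 other cells. With the edgeR fit over 3 calves, 59 of 2132 genes (2.77%) passed, 8 higher (0.375%) and 51 lower (2.39%), and without calf 1, 2 or 3 the fit called 104, 35 or 19 genes.

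The higher genes led with CD1B, at 0.281 in calf 2 (2 UMIs) and 1.31 in calf 3. CD1B was 10.6-fold higher in calf 3 (5.91 to 20.8) and 3.22 higher on the log2 scale in the fit (SE 0.615, edgeR adjusted p 1.8e-05). In calf 3 CD1B reached a level of 1 only in the FCER1A CD1E cells, so the filter set the direction of that fold. ENHO, which encodes the secreted peptide adropin, followed with 13.3-fold in calf 3 (7.1 to 28.2) and 2.85 in the fit (adjusted p 2.19e-05), and in calf 2 it was at 0.563 against 0.407. RBP4 stood at 2.11 against 1.43 in calf 2 and 3.56 against 0.536 in calf 3 (fit 1.96, adjusted p 0.00017). SERINC2, a multipass membrane protein, and TM4SF5, a tetraspanin-like protein, were higher by 1.92 (adjusted p 0.00357) and 1.60 (adjusted p 0.00354). In calf 2 SERINC2 was at 0.704 against 0.679, so the size of its difference came from calf 3. Without calf 2 TM4SF5 no longer passed (1.92). The higher calls depended on the setting. The fit called 8 genes higher, while DESeq2, and edgeR without the calf as a term, called 0 higher. Only 1 was called higher without calf 3, with keratins under 3 or with sums of thinned cells. In the other settings tried, 6 to 19 were called higher.

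Immune genes were found on both sides in calf 3. CSF3R, the receptor for granulocyte colony-stimulating factor, stood at 0, 0.563 and 1.27 in the FCER1A CD1E cells of calves 1, 2 and 3 and was 10.3-fold higher in calf 3 (5.76 to 20.3). CLEC5A was 5.94-fold higher (4.46 to 8.07) and CD52 7.03-fold (5.33 to 9.44). IL1B, an inflammatory cytokine, was 2.84-fold higher (2.29 to 3.54). RETN, which encodes resistin, was 3.94-fold higher in calf 3, but in calf 2 it stood at 6.47 against 6.51. RUNX3, a factor of dendritic cells and cytotoxic lymphocytes, was 2.06-fold higher (1.62 to 2.65). CSF3R and RUNX3 reached a level of 1 only in the FCER1A CD1E cells, while IL1B reached it in both classes. LYZ, the lysozyme gene of the same monocyte and neutrophil list as CSF3R, went the other way, at 1.78 against 4.34, and in the fit CD14 and LYZ of that list were called lower and none higher.

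Among the lower genes against all others, APOE (log2 difference -8.10, SE 0.66, edgeR adjusted p 2.53e-31) and TTR (-4.31, adjusted p 1.14e-19) were called in the fit, and FOLR2 (-6.83), FCGR1A (-6.41), CD14 (-3.87) and TREM2 (-2.78), a lipid-sensing receptor of macrophages, passed with them. In calf 3 IRF8 was 5.31-fold lower (4.01 to 7.12) and PECAM1 7.47-fold (5.39 to 10.5), but both reached a level of 1 only in the other cells. None of the 10 class II genes or the 8 class I genes compared passed 2-fold, beside 5.57% of all genes. The median log2 ratio was 0.22 for class II and -0.26 for class I, beside 0.02 over all genes. In the fit none of 12 class II genes passed, beside 2.77% of all genes.

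Genes of maturation and of migration to lymph nodes ranged from none to nearly every cell. In the FCER1A CD1E cells of calf 3, CCR7, the receptor that guides dendritic cells to lymph nodes, was at 0.0726, LAMP3 at 0.0528 and FSCN1, an actin-bundling protein of mature dendritic cells, at 0.0792. CCL17, CCL19 and CD200 had no UMI, which allows up to 0.0198 each. CD83, which stabilises class II at the surface, stood at 2.86, 5.63 and 9.17 in calves 1, 2 and 3 and in 78.8% of thinned cells against 15% of T cells and 0.327% of epithelial cells. The other BOLA-DRA-high classes carried it too, in 68.1% of C1Q-positive, 76.4% of BATF3 DNASE1L3 and 67.3% of remaining cells. CD86 was found in 37.4% of thinned cells, BIRC3, an inhibitor of cell death, in 21.6% (25.7% of T cells), MARCKSL1 in 18.5% (24.8% of epithelial cells) and CD40, the receptor for T cell help, in 13.5%. In the same gene order, the shares were 41.8, 43.6, 27.3 and 25.5% of BATF3 DNASE1L3 cells. They were 29.2, 22.2, 15.3 and 6.94% of C1Q-positive cells and 18.4, 24.5, 14.3 and 20.4% of remaining cells. CXCL16, a transmembrane chemokine and scavenger receptor, stood at 5.71, 4.36 and 9.39, and GPR183, an oxysterol receptor that positions dendritic cells, at 1.9, 1.97 and 5.41. CX3CR1 stood at 2.86, 3.66 and 2.4.

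Cytokine genes differed in level. In calf 3 IL12B had no UMI, and IL6, IL10 and IL23A stood at 0.0594, 0.066 and 0.0989. IL18 and TGFB1 of the same list were found in 18.0 and 9.91% of the thinned FCER1A CD1E cells, against 13.3 and 16.8% of T cells. IL1B stood at 0.952, 4.78 and 3.07 in calves 1, 2 and 3 and was found in 24.8% of the thinned cells against 0% of T cells. It was also found in 22.2% of C1Q-positive, 14.5% of BATF3 DNASE1L3 and 12.2% of remaining cells. TNF stood at 1.9, 1.83 and 2.04. Of the surface receptors for microbes, CLEC12A was at 4.61 in calf 3, CLEC6A at 1.22, TLR2, which binds bacterial lipoproteins, at 0.798 and CLEC7A, the receptor for fungal glucans, at 0.666.

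Among transcription factors, ID2 stood at 17.1, 12.5 and 17.7 in the FCER1A CD1E cells of calves 1, 2 and 3. SPI1, the myeloid master factor PU.1, stood at 7.62, 5.63 and 3.46, and RUNX3 at 2.86, 2.39 and 1.89. KLF4 and RBPJ, the mediator of Notch signals, were at 2.13 and 1.57 in calf 3. The proliferation genes MKI67 and TOP2A were at 0.0264 and 0.0462.

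Spread among the FCER1A CD1E cells of calf 3 was read in 212 cells thinned to 2000 UMIs. The ratio of variance to mean, which counting alone puts near 1, had a median of 1.04 over 2705 genes. Genes with a mean of at least 0.1 UMI were read, and the ratio passed 2 in 52 of them (1.92%). At low means the ratio stays near 1 even where cells differ, so the median cannot show how much most genes varied. A gene without a symbol, ENSBTAG00000001219, had the highest ratio (85.8, in 27 cells). JCHAIN, the joining chain of secreted antibodies that plasmacytoid cells also carry, came next (76.0), and 1 cell held 173 of its 177 UMIs before thinning. That cell held 4652 UMIs, 2 of them FCER1A and none CD1E, with 30.1 BOLA-DRA per 10000, and so lay at the edge of the rule on both measures. ENSBTAG00000048049, also without a symbol, was at 48.1 in 3 cells, and the chemokine genes CCL8 (in 9 cells), GRO1 (5.39, in 42 cells) and CXCL3 (4.99, in 28 cells) followed. CD52 (4.83) was found in 61 cells, or 28.8%.

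Interferon-induced ISG15 (4.86, in 43 cells) and MX1 (3.27) varied too, as did IL1B (2.82, in 54 cells) and RBP4 (2.67, in 66 cells). CST3 (4.77) and FCER1A (2.35) were found in nearly every cell and varied in amount. These cells share 1 library, so the ratios describe spread among cells of 1 animal.

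Between cells with and without CD1E, 14 of 258 listed genes outside the rule differed by at least 10 percentage points, 10 more often found with CD1E and 4 without. Of the thinned cells of calf 3, CD1B was found in 22.3% of the 139 cells with CD1E and in 5.48% of the 73 with FCER1A alone, CSF1R in 57.6 against 35.6%, and NKG7, a granule protein of cytotoxic cells, in 17.3 against 2.74%. LYZ went the other way, in 23.7 against 34.2%. SIRPA was found in 48.2 against 49.3%, and the level of CST3 was 160 against 167. Before thinning the 2 sets had medians of 7310 and 6448 UMIs, and the part of depth in the split was not tested. When the cells were split instead by TIMD4, the 124 cells with it held CSF1R in 56.5% and CD58, a ligand of CD2, in 32.3%, against 40.9 and 17.0% of the 88 cells without it. IL1B went the other way, at 21.0 against 31.8%, and SIRPA was at 46.8 against 51.1%. These splits were made from the cells of 1 calf and were not tested.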

How the data were processed

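The deposited values were UMI counts per gene and cell barcode of 3 rumen libraries, 1 per calf, made by the authors with Cell Ranger 3.1.0 on ARS-UCD1.2 and used as deposited. Barcodes with 500 to 4000 genes, at most 50000 UMIs and at most 40% of UMIs in the 13 mitochondrial coding genes were kept, and no doublet caller was applied. UMIs were summed per calf and class. Intervals are exact (Clopper-Pearson or Poisson, 95%), and for folds a count of 0 was set to 3. In calf 3, genes with a level of at least 1 in either class were compared. The planned edgeR test needed 10 cells of both classes in more than 1 calf and could not be made, so its listed alternative, over calves with at least 1 cell, was used (edgeR 4.0.16, TMM, filterByExpr, quasi-likelihood, Benjamini-Hochberg, threshold 0.05). The calf was a block because both classes came from the same animal. DESeq2 1.42.0 was an alternative. R 4.3.3, Python 3.11.15, numpy 2.4.6, scipy 1.17.1 and pandas 2.3.3 were used, and the fits were tested on simulated data. The cells and the 27 gene lists (269 of 283 genes in the files) were chosen with earlier results of these data known. Named were the listed markers, up to 4 genes per list, and up to 15 higher and 10 lower genes per fit with at least 1 UMI per 10000 that changed alike in every calf. Genes outside that rule were chosen after their values were seen. Some items are not reported here.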

Additional observations from a re-analysis of the deposited data

Results flagged for a closer look

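Outside the quality filters, 4 barcodes met the marker rule of the FCER1A CD1E cells. These barcodes entered no comparison. The 1 in calf 1 held 4379 genes and 23030 UMIs, with 27 UMIs of FCER1A and 13 of CD1E, so it passed the upper limit on genes while calf 1 kept only 1 such cell. Calf 3 gave 3, with 4019, 4262 and 386 genes, 15913, 18857 and 766 UMIs, 21, 11 and 2 FCER1A UMIs and 3, 6 and 0 CD1E UMIs. None of the 4 held a CD3 UMI.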

How the results depend on the processing

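The numbers of genes called in the fits over calves depended on most settings, and the cause was not tested. Against all other BOLA-DRA-high cells the count of 59 became 93 with no filter on low counts, 10 with DESeq2, 91 with classes from thinned cells, 13 with keratins under 3 per 10000 and 18 with thinned sums, and leaving out 1 calf gave 19 to 104. Against C1Q-positive cells the count of 125 became 203 with DESeq2 size factors, 67 with DESeq2, 192 and 195 with at least 1 and at least 3 UMIs of FCER1A and CD1E, and 15 to 296 without 1 calf. Against the remaining cells the count of 18 became 34 with no filter, 5 with DESeq2, 1 and 49 with at least 1 and at least 3 UMIs, 54 with classes from thinned cells, 0 with keratins under 3 (15 at an unadjusted p of 0.05 in edgeR) and 8 with thinned sums, and leaving out a calf left no residual degrees of freedom. Without the calf as a replicate block the counts were 2, 16 and 2.

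In calf 3 the genes apart from the remaining cells (230) became 153 with at least 3 UMIs, 71 with classes from thinned cells, 374 with keratins under 3 and 349 with thinned sums, and those apart from BATF3 DNASE1L3 cells (134) became 247 with thinned sums. Keratins under 3 left 88 of the 226 cells, and classes from thinned cells gave a share of 51.0% in calf 3. The TIMD4 share was 31.0% at 1000 UMIs and 79.6% unthinned, and the BLA-DQB level was 89.2 with all calves pooled. Leaving out calf 3 left no calf with 10 cells, so these levels and shares had no such value.

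Differences that reversed were those of CKB against all others, to -0.28 with classes from thinned cells and -0.033 with keratins under 3, and of JCHAIN in calf 3. JCHAIN fell to -5.99, -7.77 and -1.35 against all others, -1.89, -2.38 and -1.39 against C1Q-positive and -7.63, -8.55 and -2.53 against remaining cells, each with at least 3 UMIs, classes from thinned cells and BOLA-DRA of at least 50, and to -4.23 against BATF3 DNASE1L3 cells with classes from thinned cells. CXCL8 against remaining cells was -0.065 with classes from thinned cells, and MT2A was 1.54 with BOLA-DRA of at least 50 and 2.15 with keratins under 3. Of the other values for single genes, 972 in the fits and 1223 in calf 3 kept their direction and call or moved little, while 221 lost the call and 195 moved.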

Other observations

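Of the T cell and cytotoxic list, NKG7 and CCL5 were at least 2-fold lower in calf 3 than in C1Q-positive cells and in all others. Both were compared only because of their level in those other cells, so the filter set that direction. In the fit both were called lower against C1Q-positive cells, and NKG7 also against all others. NKG7 was found in 12.6% of the thinned FCER1A CD1E cells, in 29.2% of T cells, in 43.1% of C1Q-positive cells and in 0.0454% of epithelial cells. Its 100 UMIs in calf 3 lay in 56 cells, while CD3E and CD3D had 1 UMI each there and CD3G had none. CCL5 had 76 UMIs in 26 cells, and 1 cell held 23 of them. PLVAP, an endothelial gene, had 35 UMIs in 24 cells.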
